A study of Mus musculus with 9 samples.

Results

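The imprinted growth genes and noncoding RNAs described here are 9 of the 24537 gene names in a table that sets skeletal muscle against heart: H19, Dlk1, Meg3, Rian, Mirg, Peg3, Cdkn1c, Grb10 and Mest. They were found by gene name, which matched 20 transcripts. All of them are imprinted: in at least some tissues the copy from the mother and the copy from the father are not used equally, because methylation marks set in the germ line differ between them. The parental origin of the reads was not measured here. Genes expressed from the father's copy, such as Igf2, Dlk1, Peg3 and Mest, are known mainly for promoting growth, while Cdkn1c and Grb10 are known for restraining it. H19, Meg3, Rian and Mirg are noncoding RNAs of the mother's copy. H19 and Igf2 share enhancers, and Dlk1, Meg3, Rian and Mirg follow each other in another shared domain. Many imprinted genes are abundant in the fetus and decline after birth, and H19 is known to persist in skeletal muscle.

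The study holds 9 RNA sequencing libraries from C57Bl6 mice (C57Bl/6JCrl males in the study's methods), in 3 groups of 3: heart after sham surgery, quadriceps after sham surgery and quadriceps after transverse aortic constriction (TAC), in which the aortic arch is tied around a 27 gauge needle so that the left ventricle works against high pressure. Surgery was done at 8 weeks of age, and the tissues were taken 12 weeks later. None of the groups carries a transgene or a deletion by the labels. The labels name the heart libraries as adult heart but describe RNA isolation for quadriceps only. The libraries of a group are numbered, and where nothing ties a number to its own animal, the p-values measure the spread between libraries. Total counts were 37057358, 38382751 and 33102826 for heart and 32651317, 32989108 and 23383452 for sham quadriceps. The tissue labels held up against their markers. Myh6, the main myosin of mouse heart muscle, counted 933029, 889236 and 768767 reads in heart against 82, 72 and 59 in quadriceps. At an adjusted p under 0.05, 5 of 5 heart muscle markers were lower and 5 of 5 skeletal muscle markers higher in quadriceps. Among all tested transcripts 34.4% were lower and 32.2% higher. Of the heart muscle markers, Ryr2, with at most 4 counts in a quadriceps library, passed the count filter only through heart. The heart libraries differed in atrial content, with 2075, 164 and 3 counts of Myl7, the atrial myosin light chain. All fold changes below are of sham quadriceps over sham heart, fitted by edgeR (quasi-likelihood test, TMM scaling, Benjamini-Hochberg adjusted p over 24280 transcripts), and CPM is a count per 1000000 of the TMM-adjusted library size.

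Of the members, 5 host microRNAs, and some of their sequences are shown because these short RNAs are products of the transcripts counted here. The RefSeq table of GRCm38.p6 places 16 hairpins with 31 mature microRNAs inside the members on the same strand: 1 in H19, 1 in Mest, 1 in Meg3, 3 in Rian and 10 in Mirg. GENCODE vM21 has further microRNA genes in exons of Meg3 (Mir1906-1) and, upstream of the RefSeq start, of Mirg (Mir134, Mir382, Mir485 and Mir668), which are not among these 16. Printed 5′ to 3′ with the seed (bases 2 to 8) in capitals, a selection from each host reads as follows.
mmu-miR-675-5p (H19): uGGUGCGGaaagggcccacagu
mmu-miR-675-3p (H19): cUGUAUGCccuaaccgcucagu
mmu-miR-335-5p (Mest): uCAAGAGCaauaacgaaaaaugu
mmu-miR-335-3p (Mest): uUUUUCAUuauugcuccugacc
mmu-miR-770-5p (Meg3): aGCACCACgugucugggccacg
mmu-miR-770-3p (Meg3): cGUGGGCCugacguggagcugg
mmu-miR-370-3p (Rian): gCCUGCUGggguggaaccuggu
mmu-miR-453 (Mirg): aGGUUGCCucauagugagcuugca
mmu-miR-496a-5p (Mirg): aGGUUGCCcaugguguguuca
The 31 microRNAs carry 30 different seeds, and the seed of the last pair, both from Mirg, is the only one that occurs more than once. The mature RNAs themselves were not measured, since the libraries were made from purified messenger RNA, and a hairpin's row in the table counts reads of longer RNA that cover it.

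The gene that stood apart was H19, a noncoding RNA of chromosome 7 (chr7:142575530-142578146, minus strand, GRCm38). Its transcript NR_130973 counted 352, 392 and 367 in heart against 27703, 15114 and 8809 in quadriceps. Every quadriceps library was far above every heart library. The means were 7.91 ± 0.587 CPM (SD, n = 3) in heart and 716 ± 270 CPM in quadriceps, a log2 fold change of 6.50 (SE 0.29, edgeR adjusted p = 1.04e-07), or 90.5-fold. In RPKM, which divides by transcript length, H19 was at 4.50 ± 0.348 in heart and 246 ± 110 in quadriceps (SD, n = 3). That placed it at rank 71 of 24537 genes in quadriceps and at rank 5704 in heart. The other H19 transcript, NR_130974, is 2279 bases long against 2283, and it had nearly the same counts in every library, with a log2 fold change of 6.50. In bulk tissue a higher level per cell and a larger share of the cells that express a gene cannot be told apart, and this holds for every member.

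**Figure D1:**
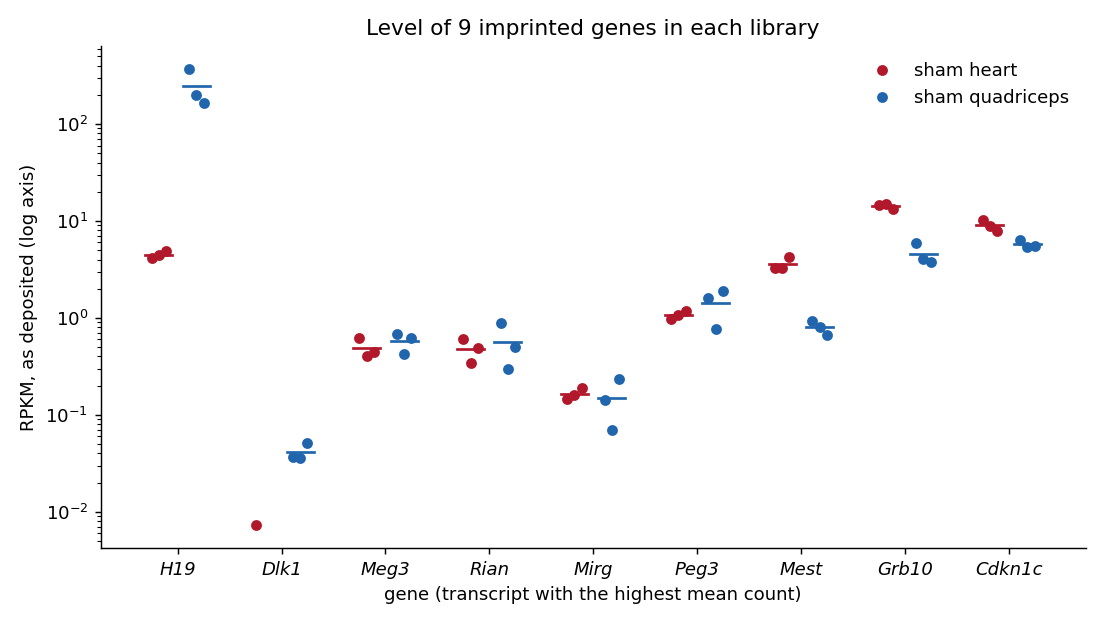
RPKM (vertical log axis) of the 9 members, each by its transcript with the highest mean count, in the 3 sham heart and 3 sham quadriceps libraries; points are libraries and lines are means, and the 2 heart libraries with no count of Dlk1 are not drawn, so that Dlk1 has no heart mean line. H19 lies between 4.16 and 4.86 in heart and between 165 and 372 in quadriceps, while the points of Meg3, Rian, Mirg and Peg3 overlap on this scale.

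The quadriceps libraries differed among themselves in H19, with 1019, 632 and 498 CPM, so that the highest was 2.05 times the lowest against 1.16 times in heart. Adipocyte markers took the same order. The order was not particular to them, as it also held for Igf2 and the members Grb10, Cdkn1c and Mest. Grb10, for example, stood at 35.8, 28.6 and 25.3 CPM in the quadriceps libraries. Dlk1, Meg3, Rian, Mirg and Peg3 did not follow it. Adipoq, which encodes the fat cell hormone adiponectin and was the most abundant of the 4 adipocyte markers, stood at 43.5, 17.8 and 5.31 CPM in the quadriceps libraries. The summed adipocyte markers were 1.30, 0.576 and 0.349 CPM in heart and 70.8, 26.7 and 9.95 CPM in quadriceps, and none was at 0 throughout a tissue. With TMM 4 of 4 were called higher in quadriceps, where 32.2% of all transcripts were higher. With library totals 4 of 4 were higher too, where 13.3% of all transcripts were. Of the 4, Lep and Plin1 would not have passed the count filter on their heart libraries, so the filter bears on their direction. The sum of the 5 satellite cell markers (Pax7, Myf5, Cdh15, Chodl and Calcr), which mark the muscle stem cells, was 16.3, 18.7 and 17.3 CPM in quadriceps and at most 0.219 CPM in heart, with Chodl the most abundant and Pax7, Myf5 and Calcr at 0 in every heart library. The first quadriceps library was thus highest in H19 and in adipocyte markers but lowest in satellite cell markers. Without that library the log2 fold change of H19 was 6.19 (SE 0.15, edgeR adjusted p = 1.06e-08). The part of either cell type in the level of H19 was not tested.

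**Figure D2:**
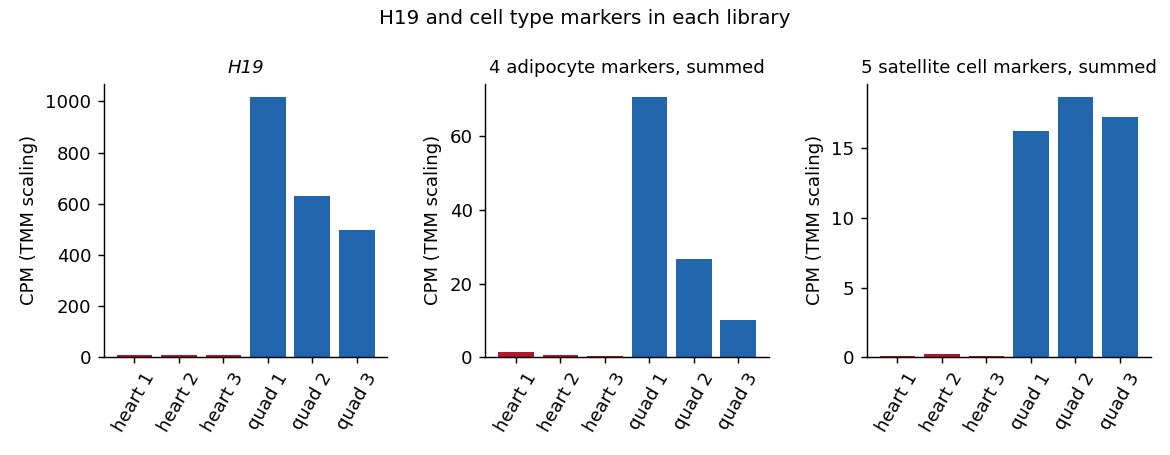
CPM with TMM scaling (vertical axes, starting at 0) of H19, of the 4 adipocyte markers summed and of the 5 satellite cell markers summed, with 1 bar for each sham heart and sham quadriceps library. In quadriceps H19 lies between 498 and 1019, the adipocyte sum between 9.95 and 70.8 in the same order of libraries, and the satellite cell sum between 16.3 and 18.7.

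The H19 exon that gives rise to miR-675 was covered in quadriceps. The row of its hairpin (chr7:142577064-142577147, minus strand, 84 bases) held 155, 120 and 56 counts in quadriceps and 2, 0 and 1 in heart. Relative to the H19 transcript of the same library these were 0.560%, 0.794% and 0.636% in quadriceps, and 3 of 1111 counts, or 0.270%, over the heart libraries. Of the other 15 hairpins, 10 had no count in any library and the rest at most 2 counts.

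Igf2, the growth factor gene next to H19 (chr7:142650768-142666816, minus strand), went the other way. The 2 genes lie 72.6 kb apart. Igf2 had 620, 829 and 687 counts in heart against 268, 190 and 120 in quadriceps, and its log2 fold change was -0.88 (SE 0.15, edgeR adjusted p = 0.000761), with no overlap in CPM. Igf2 had the same direction and an adjusted p under 0.05 in all 16 settings, from -1.62 to -0.74. Since both genes are read from the same library, their ratio does not depend on how libraries are scaled. The H19 to Igf2 ratio of RPKM was 1.003, 0.835 and 0.943 in heart and 183, 140 and 130 in quadriceps, which is 161-fold by the mean log ratios. The groups did not overlap, and the 2-sided exact permutation p of 0.1 is the smallest that 3 against 3 libraries can give.

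The genes of the Dlk1 to Dio3 domain on chromosome 12 were low in both tissues. Dlk1 (chr12:109452485-109463336, plus strand), which encodes a membrane protein related to the Notch ligands that is known from fetal and regenerating muscle, had 0, 0 and 1 counts in heart against 5, 5 and 5 in quadriceps. It has 5 transcripts in the table and none passed the filter of more than 5 counts in at least 2 libraries. Against a floor of 3 counts per heart library, the mean of Dlk1 in quadriceps was 3.51-fold higher with TMM scaling and 2.08-fold with library totals. The floor covers the heart side only, and the error of the 5 counts in each quadriceps library is not included. Leaving out 1 library moved the first of these values between 3.06 and 3.83. Rtl1, with at most 5 counts in any library, and Dio3, with counts of 1, 0 and 1 in heart against 6, 4 and 3 in quadriceps, were not tested either.

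The 3 noncoding RNAs that follow Dlk1 on the same strand gave smaller differences than H19. Meg3 (chr12:109540996-109571729), a noncoding RNA studied mainly as a growth suppressor, had 264, 179 and 167 counts in heart against 258, 160 and 165 in quadriceps. The raw counts interleave, and only after TMM scaling were all quadriceps libraries (6.69 to 9.49 CPM) above all heart libraries (3.56 to 5.54 CPM). The log2 fold change was 0.97 (SE 0.20, edgeR adjusted p = 0.00197), but 0.23 with library totals (edgeR adjusted p = 0.368). Its other 2 transcripts had log2 fold changes of 0.55 (NR_027651, edgeR adjusted p = 0.0670) and 0.57 (NR_027652, edgeR adjusted p = 0.0214), which turned to -0.19 and -0.17 with library totals. Heart library 1 had the most Meg3 and also the most Myl7, and without it the log2 fold change of Meg3 was 1.19 (SE 0.19, edgeR adjusted p = 0.000843).

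Rian (chr12:109603945-109661716), a host of small nucleolar RNAs and microRNAs, had 79, 47 and 57 counts in heart against 104, 35 and 42 in quadriceps. Its groups overlapped in CPM. The log2 fold change of 0.98 (SE 0.34, edgeR adjusted p = 0.0297) passed the threshold but was no longer called without quadriceps library 1 (0.55, edgeR adjusted p = 0.141), heart library 2 (0.78, edgeR adjusted p = 0.101) or heart library 3 (0.99, edgeR adjusted p = 0.0645), nor with library totals (0.26, edgeR adjusted p = 0.565). Mirg (chr12:109734981-109749458), the host of the microRNA pair with the shared seed, had 7, 8 and 8 counts in heart against 6, 3 and 7 in quadriceps, and its log2 fold change of 0.52 (SE 0.49, edgeR adjusted p = 0.373) became -0.21 with library totals. Ratios within a library set the 3 RNAs against each other free of scaling. Rian was 0.970 ± 0.127 of Meg3 in heart and 0.942 ± 0.315 in quadriceps (RPKM ratio, SD, n = 3, 2-sided exact permutation p = 0.8), and Mirg was 0.353 ± 0.102 and 0.250 ± 0.112 of Meg3 (exact permutation p = 0.2). Both ratios overlapped between the tissues, whereas H19 over Meg3 was 43.9-fold higher in quadriceps with no overlap (exact permutation p = 0.1, the smallest possible).

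**Figure D3:**
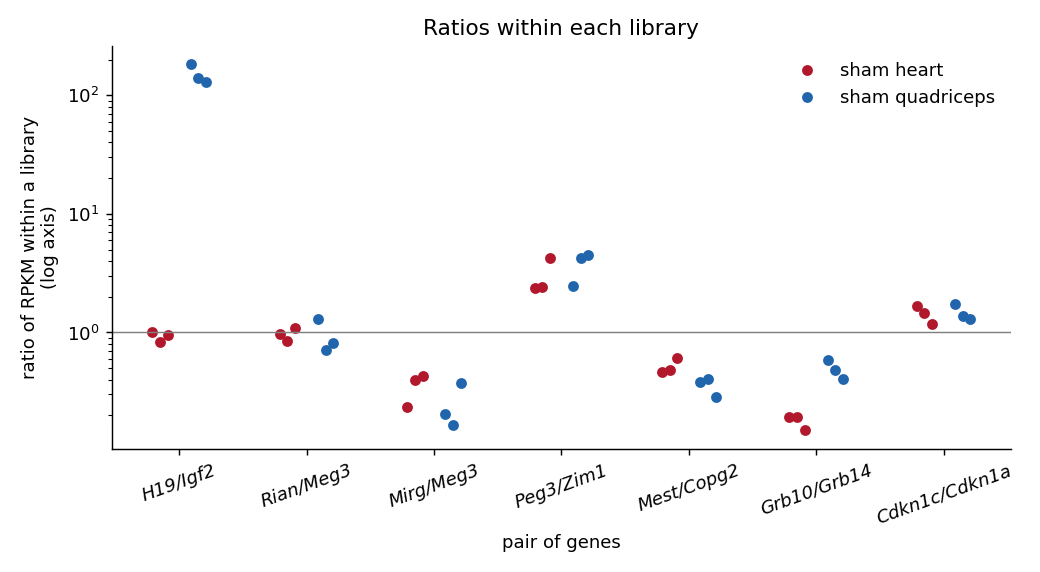
Ratio of the RPKM of a pair of genes within a library (vertical log axis, grey line at 1) for 7 pairs, with 1 point for each of the 3 sham heart and 3 sham quadriceps libraries. The H19 to Igf2 ratio is 0.835 to 1.003 in heart and 130 to 183 in quadriceps, and the Rian to Meg3 ratio lies on either side of 1 in both tissues.

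Peg3 (chr7:6703892-6730462, minus strand), a zinc finger protein of the father's copy that is known from muscle stem cells and maternal behaviour, had 237, 270 and 257 counts in heart against 344, 168 and 296 in quadriceps. In CPM the quadriceps libraries (12.6, 7.02 and 16.7) were all above the heart libraries (4.98, 5.37 and 5.98), with library 2 the nearest to them. The log2 fold change was 1.15 (SE 0.26, edgeR adjusted p = 0.00350) and stayed called in each of the 6 fits that left out a library, but with library totals it was 0.41 (edgeR adjusted p = 0.230). Its neighbour Zim1, another zinc finger gene, had a log2 fold change of 0.87 (SE 0.37) that was not called by edgeR (adjusted p = 0.0603) but was by DESeq2 (adjusted p = 0.0391), and the Peg3 to Zim1 ratio overlapped between the tissues (3.01 ± 1.07 and 3.73 ± 1.08, SD, n = 3, exact permutation p = 0.3).

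The members that were lower in quadriceps were Mest and Grb10. Mest (chr6:30733506-30748466, plus strand), a hydrolase-like protein of the father's copy linked to fat cell size, had 321, 336 and 371 counts in heart against 81, 70 and 41 in quadriceps, or 7.35 ± 1.12 against 2.74 ± 0.368 CPM (SD, n = 3). The groups were far apart, with a log2 fold change of -1.41 (SE 0.16, edgeR adjusted p = 4.89e-05). All 3 of its transcripts were lower, from -1.41 to -1.38. Copg2, a coat protein gene whose exons overlap those of Mest on the opposite strand, was lower as well (-0.89, SE 0.10, edgeR adjusted p = 3.41e-05). Which strand setting the counting used is not given in the sources used here, so reads in that overlap could be counted for either gene. The same holds where annotated genes on the opposite strand overlap exons of H19, Meg3, Cdkn1c and Igf2, the last of them Igf2os. The Mest to Copg2 ratio was 0.516 ± 0.0789 in heart and 0.358 ± 0.0644 in quadriceps (SD, n = 3), without overlap (exact permutation p = 0.1, the smallest possible).

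Grb10 (chr11:11930499-12037428, minus strand), an adaptor protein that inhibits insulin and IGF receptor signalling, was the most abundant member in heart at 14.3 ± 0.853 RPKM. It had 2753, 2902 and 2236 counts in heart against 973, 683 and 447 in quadriceps, and every quadriceps library was below every heart library in CPM. The log2 fold change was -0.90 (SE 0.13, edgeR adjusted p = 0.000269). Grb14, an adaptor of the same family, was lower by more, at -2.36 (SE 0.11, edgeR adjusted p = 1.11e-07). Relative to Grb14, Grb10 was therefore higher in quadriceps, at 0.490 ± 0.0885 against 0.179 ± 0.0261 in heart (RPKM ratio, SD, n = 3, no overlap, exact permutation p = 0.1).

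Cdkn1c (chr7:143458339-143461059, minus strand), which encodes the cell cycle inhibitor p57, lies 880 kb from H19. It had 730, 662 and 510 counts in heart against 402, 348 and 250 in quadriceps. The CPM values overlapped, at 13.5 ± 1.74 in heart and 14.5 ± 0.331 in quadriceps (SD, n = 3), and the log2 fold change was 0.11 (SE 0.12, edgeR adjusted p = 0.434). With library totals it was -0.64 (edgeR adjusted p = 0.00158), so whether Cdkn1c differed between the tissues depended on the scaling. Relative to Cdkn1a, the related inhibitor p21, it stood at 1.44 ± 0.243 in heart and 1.47 ± 0.246 in quadriceps (RPKM ratio, SD, n = 3, exact permutation p = 0.9), with overlap. Relative to Cdkn1b, the inhibitor p27, it was lower in quadriceps without overlap, at 0.780 ± 0.0734 against 0.976 ± 0.126 in heart (exact permutation p = 0.1, the smallest possible).

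**Figure D4:**
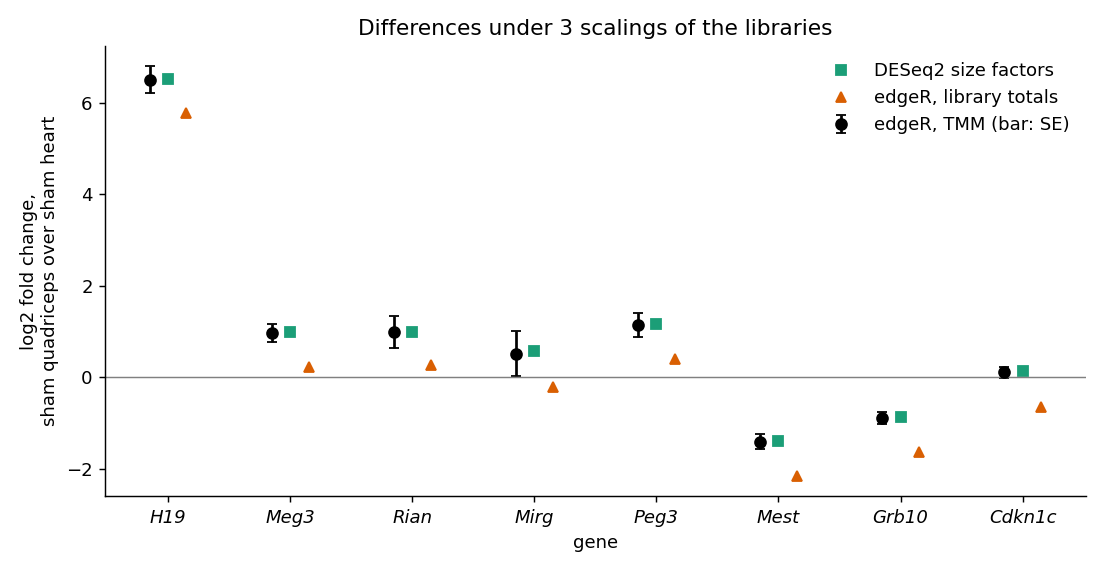
Log2 fold change of sham quadriceps over sham heart (vertical axis) for the 8 members that passed the count filter, with edgeR and TMM (circles, bars are SE), DESeq2 size factors (squares) and edgeR with library totals (triangles). H19 stays above 5 and Mest and Grb10 stay below 0 with each scaling, while Mirg and Cdkn1c cross 0 with library totals.

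Of the 9 members, 8 had a tested transcript, and 4 of the 8 were higher in quadriceps (H19, Meg3, Rian and Peg3), 2 were lower (Grb10 and Mest) and 2 were not called (Mirg and Cdkn1c). Among all 24280 tested transcripts 32.2% were higher and 34.4% lower at the same threshold. By the rule of a log2 fold change past 2 with an unadjusted p under 0.05, 1 of the 8, H19, was higher and 0 were lower with edgeR as with DESeq2, beside 7.00% and 8.64% of all transcripts. The median log2 fold change was 0.74 over the 8 members and -0.06 over all transcripts. With library totals in place of TMM the median was 0.0084 over the members and -0.80 over all transcripts, and 1 member was called higher (H19) and 3 lower (Cdkn1c, Grb10 and Mest), beside 13.3% higher and 62.6% lower among all transcripts. Of the members, only H19, Grb10 and Mest kept their direction and an adjusted p under 0.05 in all 16 settings, with ranges of 5.40 to 6.72, -1.65 to -0.77 and -2.16 to -1.28. The TMM factors behind this were 1.29 to 1.31 in heart and 0.725 to 0.833 in quadriceps, where the 10 most abundant transcripts held 15.6% to 18.5% of the counts against 11.5% to 12.0% in heart.

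The order of the levels differed between the tissues. In heart the RPKM fell from Grb10 (14.3 ± 0.853) through Cdkn1c (9.01 ± 1.11), H19 (4.50 ± 0.348), Mest (3.599 ± 0.545), Peg3 (1.07 ± 0.104), Meg3 (0.489 ± 0.115), Rian (0.476 ± 0.128) and Mirg (0.165 ± 0.0207) to Dlk1, with 1 count in all. The neighbours H19 and Mest and the neighbours Meg3 and Rian had overlapping ranges, so their order was within the spread. In quadriceps H19 (246 ± 110) was followed by Cdkn1c (5.78 ± 0.506), Grb10 (4.58 ± 1.14), Peg3 (1.43 ± 0.590), Mest (0.799 ± 0.137), Meg3 (0.576 ± 0.137), Rian (0.566 ± 0.303), Mirg (0.148 ± 0.0809) and Dlk1 (0.0414 ± 0.00850). Here the neighbours from Cdkn1c to Grb10, Peg3 to Mest, Mest to Meg3 and Meg3 to Rian overlapped. The place of Meg3 depended on its transcript, since the 1903-base NR_027652, with fewer counts than the 11467-base transcript used here, was at 1.07 ± 0.140 RPKM in heart, level with Peg3, and at 0.955 ± 0.160 in quadriceps. The Rian to Meg3 and Mirg to Meg3 ratios rest on the same choice.

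Members were set against all other tested genes with a mean of at least 10 counts for the likeness of their patterns, as the root mean square difference of centred log2 CPM over the 6 libraries, with a prior count of 2 that draws in the folds of genes with few counts. Nearest to H19 were the sialidase gene Neu2 (0.145), the hormone receptor gene Mchr1 (0.207) and Pfkfb3 (0.237), which encodes a regulator of glycolysis. Pfkfb3 had a log2 fold change of 6.42 (edgeR adjusted p = 1.84e-08). Neu2 had 0 counts in every heart library against 211, 106 and 80 in quadriceps, and Mchr1 0 against 137, 86 and 54. Both passed the count filter only through quadriceps, and how near they lay to H19 rests on the prior count. Pamr1 (0.0712) was nearest to Meg3, Dpp4 (0.196) to Rian, Il7 (0.0481) to Peg3 and Aasdh (0.0390) to Cdkn1c. The nearest to Grb10 was Pdgfra (0.0382), a fibroblast marker, which had a log2 fold change of -0.90 (edgeR adjusted p = 0.000527). Fibroblast markers were lower in 3 of 5 cases, where 34.4% of all transcripts were lower, and summed to 366, 334 and 305 CPM in heart and 264, 173 and 219 CPM in quadriceps, with Col3a1 the most abundant and none at 0 in every library of a tissue. Endothelial markers were lower in 5 of 5 cases and summed to 469, 485 and 507 CPM in heart and 151, 143 and 166 CPM in quadriceps, with Kdr the most abundant and none at 0. The part of these cell types in the lower Grb10 and Mest was not tested. Of the remaining markers, 4 of 5 for macrophages and 2 of 5 for smooth muscle cells and pericytes were lower, 2 of 4 for Schwann cells were higher, 3 of 4 for atrial muscle were lower, and the 1 tested for the mesothelium, Wt1, was lower. Wt1 and the atrial Myl7 passed the count filter only through heart. With library totals, where 62.6% of all transcripts were lower, 5 of 5 fibroblast, 5 of 5 macrophage and 4 of 5 smooth muscle and pericyte markers were lower, and 1 Schwann cell marker was lower with 2 higher. Mirg had under 10 counts on average and was not searched.

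Among 49 further imprinted genes with a row in the table, 37 were tested, and 8 were higher, 14 lower and 15 not called, beside 32.2% higher and 34.4% lower among all transcripts. With library totals 4 of the 37 were higher, 28 lower and 5 not called, beside 13.3% and 62.6% of all transcripts. These 28 include Slc22a18, Sfmbt2, Peg12, Klf14 and Ddc, which passed the count filter only through heart, where they are high. Klf14 and Ddc are also among the 14 that were lower with TMM. The largest difference upward without overlap was that of Slc38a4, an amino acid transporter expressed from the father's copy. It had 306, 343 and 314 counts in heart against 5219, 5254 and 4979 in quadriceps, a log2 fold change of 5.07 (SE 0.17, edgeR adjusted p = 1.69e-08). Its quadriceps libraries stood at 192, 220 and 281 CPM, in the reverse order of those of H19. Asb4, a subunit of ubiquitin ligases (2.16, SE 0.14, edgeR adjusted p = 1.03e-06), and Nnat, which encodes the membrane protein neuronatin (2.14, SE 0.44, edgeR adjusted p = 0.00205), followed. Nnat had 132, 34 and 34 counts in quadriceps against 37, 31 and 21 in heart, and without quadriceps library 1 its log2 fold change was 1.41 (edgeR adjusted p = 0.00215). Calcr, the calcitonin receptor and also a satellite cell marker, had 0 counts in every heart library and 6, 0 and 8 in quadriceps, so its groups met at 0. It passed the count filter only through quadriceps and was called by edgeR (adjusted p = 0.0178) but not by DESeq2 (adjusted p = 0.146).

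Lower past a log2 fold change of 2 were 5 of these genes at an adjusted p under 0.05. Of these 5, Ddc and Klf14 passed the count filter only through heart, where they are high. At an unadjusted p under 0.05 with edgeR, 6 of the 37 tested were lower past 2, beside 8.64% of all transcripts. These 6 include Slc22a18, which also passed the filter only through heart. Kcnq1, a potassium channel subunit of the heart muscle cell, had 781, 680 and 657 counts in heart against 9, 2 and 7 in quadriceps (-5.83, SE 0.27, edgeR adjusted p = 1.22e-07). Ddc, the neighbour of Grb10 and the enzyme that makes dopamine from its precursor, had 76, 89 and 76 counts in heart against 3, 3 and 2 in quadriceps. With 3 counts set for each quadriceps library, its mean in heart was 12.7-fold higher. The cation transporter Slc22a3 (-3.79, SE 0.26, edgeR adjusted p = 1.77e-06) and the actin-binding Ppp1r9a (-2.33, SE 0.32, edgeR adjusted p = 0.000150) were lower too, and the transcription factor gene Klf14, with 4, 8 and 6 counts in heart against 1, 1 and 0, was at the threshold (edgeR adjusted p = 0.0499) and was not called by DESeq2 (adjusted p = 0.173).

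**Figure D5:**
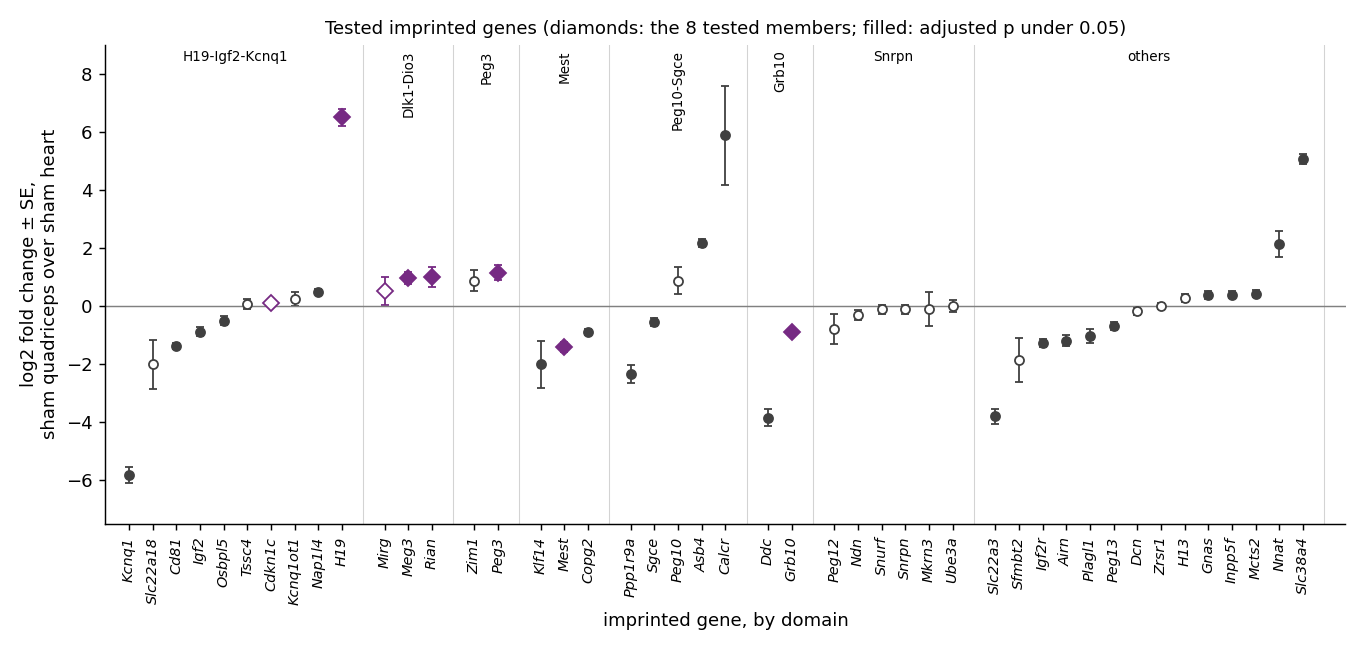
Log2 fold change of sham quadriceps over sham heart with its SE (vertical axis, edgeR with TMM) for the 45 tested imprinted genes, grouped by domain; diamonds are the 8 tested members, circles the others, and filled symbols have an adjusted p under 0.05. H19 at 6.50 and Kcnq1 at -5.83 lie in the same domain, and no gene of the Snrpn domain is called.

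By imprinted domain, the H19 to Kcnq1 domain held 10 tested genes with 2 higher, 4 lower and 4 not called, beside 32.2% higher and 34.4% lower among all transcripts. With library totals 1 was higher, 8 lower and 1 not called, beside 13.3% and 62.6%, where Slc22a18, 1 of the 8, passed the filter only through heart. In the Dlk1 to Dio3 domain 2 of 3 tested genes were higher and in the Peg3 domain 1 of 2, or 2 with DESeq2, where 32.2% of all transcripts were higher with edgeR and 31.7% with DESeq2, and none of them was called with library totals. In the Mest domain Mest and Copg2 were lower, and in the Grb10 domain Grb10, while Klf14 and Ddc, the remaining tested genes of these domains, passed the filter only where they are high and are not counted here. In the Peg10 to Sgce domain, with Calcr left out on the same ground, Asb4 was higher and 2 genes were lower, Ppp1r9a and the sarcoglycan gene Sgce (-0.54, SE 0.13, edgeR adjusted p = 0.00489). In the Snrpn domain 0 of 6 were called, with values of -0.79 for Peg12, -0.12 for Snrpn and -0.01 for Ube3a (edgeR adjusted p = 0.192, 0.549 and 0.966). None of these 6 had an unadjusted p under 0.05 with edgeR, and DESeq2 called 0 of them, but with library totals 5 of the 6 were lower, as were 62.6% of all transcripts, and Peg12, 1 of the 5, passed the filter only through heart. Snrpn and Snurf, which share a transcript, had the same count in every library, so 1 set of reads stands for both of them in these counts and in those over all imprinted genes. Dcn, which encodes the matrix proteoglycan decorin and had the highest mean RPKM of the remaining imprinted genes, stood at -0.18 (SE 0.14, edgeR adjusted p = 0.272), and with library totals it was lower (-0.92, edgeR adjusted p = 0.00156). The median over all 45 tested imprinted genes was -0.12 beside -0.06 over all transcripts, and with library totals -0.88 beside -0.80.

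The pathways in which the members act were followed in lists of their partners. Of 13 tested genes of the Notch pathway, to which Dlk1 is related, 2 were higher and 9 lower in quadriceps, with a median of -1.32, where 34.4% of all transcripts were lower. With library totals 0 were higher and 10 lower, where 62.6% of all transcripts were lower. The list holds Notch4 and the ligand gene Dll4, known from endothelial cells, whose 5 markers were all lower with a median of -1.49, and the part of these cells was not tested. Hey2, a target gene, was lowest (-2.58, SE 0.19, edgeR adjusted p = 2.36e-06), Rbpj, the transcription factor of the pathway, was called higher (0.75, SE 0.16, edgeR adjusted p = 0.00217) but lay slightly below 0 with limma on RPKM, and Hes1, with the highest mean RPKM, was not called by edgeR (0.51, adjusted p = 0.0742) but was by DESeq2 (0.54, adjusted p = 0.0402), which called 3 of the list higher. Of 10 tested genes of insulin and IGF signalling, in which Grb10 and Igf2 act, 2 were higher and 6 lower, beside 32.2% and 34.4% of all transcripts. With library totals 1 was higher and 7 lower, beside 13.3% and 62.6%, and DESeq2 called 3 higher and 5 lower, beside 31.7% and 31.8%. Igf1, the ligand not subject to imprinting, was higher in quadriceps (1.56, SE 0.15, edgeR adjusted p = 1.17e-05) where Igf2 was lower, and Igf2r, the imprinted receptor that clears Igf2, was lower (-1.29, SE 0.14, edgeR adjusted p = 2.84e-05). Of 14 tested cell cycle inhibitors, kinases and cyclins, 5 were higher and 6 lower, beside 32.2% and 34.4% of all transcripts, with 3 and 10 by library totals (13.3% and 62.6%) and 5 and 4 by DESeq2 (31.7% and 31.8%). The inhibitor Cdkn2b was highest (2.06, SE 0.35, edgeR adjusted p = 0.000644), the kinase Cdk6 lowest (-2.94, SE 0.19, edgeR adjusted p = 1.09e-06), and Cdkn1b, with the highest mean RPKM over both tissues though not in heart alone, was higher with TMM (0.44, SE 0.11, edgeR adjusted p = 0.00487) and lower with library totals.

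The response of the members to TAC could not be read. The deposited TAC table is limited to 587 genes of secreted proteins, and 0 of the 9 members are among them. It shares its sham quadriceps libraries with the comparison above. One of its TAC columns is numbered 4, a number that no label carries, and was used as the third TAC library. The table holds 4 imprinted genes, and none was called by edgeR or DESeq2 among 586 tested, of which 17.7% were higher and 11.9% lower after TAC. Igf2, counted here on another of its transcripts, had 257, 183 and 117 counts in sham and 191, 254 and 264 in TAC quadriceps. The groups overlapped after scaling, and the log2 fold change of TAC over sham was 0.33 (SE 0.24, edgeR adjusted p = 0.348). Igf2r was at 0.55 (SE 0.22, edgeR adjusted p = 0.0952) with no overlap between 1040 to 1640 normalized counts in sham and 1903 to 2201 in TAC. Cd81 and Dcn were at -0.20 and 0.17 (edgeR adjusted p = 0.480 and 0.601). At an unadjusted p under 0.05, 1 of the 4 passed with edgeR, Igf2r. With the library totals of 5 libraries the values were -0.43 for Igf2, -0.03 for Igf2r, -0.62 for Dcn and -0.83 for Cd81, where Cd81 was called (edgeR adjusted p = 0.0325), and the median of all genes moved from 0.03 to -0.63.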

How the data were processed

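RNA of 9 mouse tissue libraries (3 sham heart, 3 sham quadriceps and 3 TAC quadriceps) was sequenced single-end by the study, trimmed with Trim Galore, aligned with STAR to mm10 and counted per RefSeq transcript with Rsubread. The authors deposited raw counts and RPKM values, and the RPKM values are counts divided by transcript length and library total. The deposited fold changes and p-values are the authors' own comparisons and were not used. The TAC table, restricted to secreted proteins, holds 1 per-library column that was not used, the RPKM of a TAC library numbered 4, while the labels number the TAC libraries 1 to 3. Counts with more than 5 reads in at least 2 libraries were tested with edgeR 4.0.16 (quasi-likelihood, TMM, Benjamini-Hochberg) in R 4.3.3. A call is an adjusted p under 0.05. Alternatives were DESeq2 1.42.0, library totals, other filters, limma 3.58.1 on log2(RPKM + 0.1, 0.5 or 1), 1 transcript per gene, a replicate block and leaving out each library. Each gene was represented by its transcript with the highest mean count. The text names all 9 members, for each further list the genes with the lowest and the highest fold change and the highest mean RPKM, called imprinted genes past a log2 fold change of 2, and the nearest of 3 patterns alike, of which that of Mest is not reported here. Copg2, Igf2, Igf2r, Grb14, Zim1 and the markers Adipoq and Myl7 were chosen as neighbours or after values were seen. Members and lists were chosen with earlier results of these data known. The code was tested on simulated data. Every pair of replicate libraries differed beyond sampling noise, with 7.10 as the lowest ratio of chi-square to its degrees of freedom, so none was counted as a duplicate. Depth was 23383452 to 38382751 counts per library in the heart comparison, and floors of 3 counts cover counting error only. Zfp264, listed for the Peg3 domain, was not analysed here. Positions and microRNAs come from RefSeq GRCm38.p6, and exon overlaps from GENCODE vM21. Tables and figures were made in Python 3.11.15 (pandas 2.3.3, numpy 2.4.6, matplotlib 3.10.9).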

Additional observations from a re-analysis of the deposited data

How the results depend on the processing

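Mirg and Dlk1 had under 10 counts in every library, and Dlk1 was tested only without the count filter, where it was called (edgeR adjusted p = 0.00166). The main dependence was on scaling, since library totals and RPKM place all quadriceps values lower than TMM does. With library totals and with limma on log2(RPKM + 0.1), (RPKM + 0.5) and (RPKM + 1), in that order, the log2 fold changes were 0.23, 0.19, 0.12 and 0.081 for Meg3, 0.26, 0.13, 0.098 and 0.072 for Rian, 0.41, 0.30, 0.25 and 0.20 for Peg3 (none called), -0.21, -0.14, -0.044 and -0.023 for Mirg (not called) and -0.64, -0.63, -0.60 and -0.56 for Cdkn1c (called). They were -0.31, -0.31, -0.30 and -0.28 for Cdkn1b and -0.26, -0.28, -0.27 and -0.26 for Hes1, and -0.023, -0.012 and -0.0063 for Rbpj with limma. Members called higher were then 1 in each of these settings instead of 4, and members lower past 2 were 1 with library totals and with a pseudocount of 0.1 instead of 0. Transcripts called higher numbered 3241, 3218, 3201 and 3194 and lower 15203, 15365, 15319 and 15322. Past a log2 fold change of 2, limma gave 801, 552 and 419 higher, limma with 0.5 and 1 gave 1344 and 903 lower, and library totals 4171 lower. The Dlk1 fold over the heart floor was 2.08 with library totals.

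With 1 transcript per gene, and so fewer features tested, 4744 were higher and 5059 lower, and 1059 and 1353 past 2. Without the count filter 2 members were higher past 2, as Dlk1 was then tested. Leaving out 1 library gave 3 to 4 members higher, 2 lower, and log2 fold changes of 6.19 to 6.72 for H19, 0.84 to 1.19 for Meg3, 0.55 to 1.28 for Rian, 0.12 to 0.84 for Mirg, 0.88 to 1.43 for Peg3, 0.02 to 0.21 for Cdkn1c, -1.02 to -0.77 for Grb10 and -1.48 to -1.28 for Mest. Ube3a was at 0.0068 with DESeq2 and, leaving out 1 library, between -0.23 and 0.21, and Snrpn between -0.25 and 0.067. The cause of these changes was not tested.

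Heart and quadriceps libraries that carry the same number showed no shared deviation from their group means (r = 0.05, -0.05 and 0.04 for numbers 1, 2 and 3), and with the replicate number as a block H19 was at 6.44. The block of 4 TAC and sham libraries gave 56 genes higher instead of 104, and -0.036 for Dcn. In the TAC table, library totals and limma on RPKM, each with 5 libraries, gave 20 and 17 genes higher, 180 and 199 lower, and -0.43 and -0.31 for Igf2, -0.62 and -0.62 for Dcn and -0.033 and -0.026 for Igf2r. Leaving out 1 library gave 25 to 113 higher and 35 to 102 lower, with 25, 35 and 34 higher without sham library 1, 2 or 3, 62 and 65 without TAC library 1 or 4, 35 and 38 lower without sham library 1 or 3, and -0.040 to 0.35 for Dcn.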
